A study of Mus musculus with 223 samples.

Results

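The transcripts of 37 synaptic vesicle and release genes were followed in single interneurons (INs) of the perinatal mouse cortex, out of 43629 genes counted in each cell. The genes were listed by name for their known roles in holding, docking, priming and fusing synaptic vesicles, with earlier results of these data known. They are 6 synaptotagmins, the SNARE proteins Snap25, Snap47, Stx1a, Vamp1 and Vamp2 with the disassembly enzyme Nsf, 2 complexins, 3 Munc13 priming factors, 5 active zone scaffolds, 3 Rab3 GTPases, 3 synapsins, the vesicle membrane proteins Syp, Sypl, Synpr, Syngr1, Syngr3, Sv2a, Sv2b and Sv2c, and the synuclein Sncb.

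The cells were Htr3a-GFP+ INs from transgenic C57BL/6 mice of both sexes, in which eGFP under Htr3a regulatory sequences marks INs that arise mostly in the caudal ganglionic eminence. All groups share this transgene, and no group was treated. Cortices with their white matter were taken at embryonic day 18 (E18) and at postnatal days 2 (P2) and 5 (P5), several animals were pooled per age, and sorted GFP+ cells were captured singly. The E18 group holds 82 cells without a type. The postnatal cells carry a type that the authors drew from these same counts, with 22, 31 and 13 cells of types 1, 2 and 3 at P2 and 34, 19 and 22 at P5. A difference between types is therefore a description. Each age is 1 pool, so each group counts as 1 sample, cells are not replicates, and no p-value is given. P5 cortices were dissociated at room temperature and the younger ones warmer, so age and dissociation cannot be told apart.

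At a synapse, vesicles loaded with transmitter are tethered to the active zone by large scaffolds such as RIM, Bassoon, Piccolo and ELKS. Munc13 proteins prime them. The SNARE proteins of the vesicle (VAMP) and of the plasma membrane (syntaxin and SNAP) then zipper into a complex that complexins regulate, and synaptotagmins trigger fusion when calcium enters. Synapsins hold the reserve of vesicles, Rab3 GTPases ride on vesicles bound for release, and synaptophysin, synaptoporin, synaptogyrins and SV2 are proteins of the vesicle membrane. Most of these proteins come in families of paralogs.

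Sequence upstream of 5 members is shown because their levels are compared at length between types and ages (Synpr, Syn2, Cplx1, Cplx2) or because it holds motifs known from neuronal genes (Syn1). Each line gives the 250 bases before the most upstream RefSeq start in build GRCm38.p6, 5′ to 3′ on the strand of the gene, and the Syn1 line is shorter and stops where the annotation of the counted gene begins. The Cplx2 window lies at an upstream RefSeq start, 68793 bases before the annotated start of the counted gene. Capitals mark every match, on either strand, to the GC box GGGCGG, the cyclic AMP response element TGACGTCA, the TATA box TATAAA or TTCAGCACC, a part of the longer RE1 element. The windows are chr14:13284530-13284779 (plus strand) for Synpr, chr6:115134652-115134901 (plus) for Syn2, chr5:108550028-108550277 (minus) for Cplx1, chr13:54302306-54302555 (plus) for Cplx2 and chrX:20921005-20921168 (minus) for Syn1.
Synpr: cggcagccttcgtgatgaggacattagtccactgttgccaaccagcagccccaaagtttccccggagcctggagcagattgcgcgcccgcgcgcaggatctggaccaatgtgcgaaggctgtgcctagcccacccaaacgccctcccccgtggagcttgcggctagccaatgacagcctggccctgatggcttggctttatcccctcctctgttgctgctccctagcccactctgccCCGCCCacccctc
Syn2: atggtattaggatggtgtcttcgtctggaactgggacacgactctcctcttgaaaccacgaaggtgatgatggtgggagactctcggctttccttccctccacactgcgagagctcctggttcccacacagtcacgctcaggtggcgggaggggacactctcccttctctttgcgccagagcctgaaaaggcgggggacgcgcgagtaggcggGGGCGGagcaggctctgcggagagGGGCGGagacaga
Cplx1: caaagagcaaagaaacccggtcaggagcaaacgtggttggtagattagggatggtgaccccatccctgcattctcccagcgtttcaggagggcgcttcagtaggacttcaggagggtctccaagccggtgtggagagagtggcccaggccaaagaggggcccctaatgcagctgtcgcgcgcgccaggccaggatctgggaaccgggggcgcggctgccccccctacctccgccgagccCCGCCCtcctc
Cplx2: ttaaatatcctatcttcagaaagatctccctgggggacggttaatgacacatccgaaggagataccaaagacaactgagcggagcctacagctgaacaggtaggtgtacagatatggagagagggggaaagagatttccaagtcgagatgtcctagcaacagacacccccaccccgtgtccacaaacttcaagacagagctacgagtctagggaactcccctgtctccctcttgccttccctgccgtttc
Syn1: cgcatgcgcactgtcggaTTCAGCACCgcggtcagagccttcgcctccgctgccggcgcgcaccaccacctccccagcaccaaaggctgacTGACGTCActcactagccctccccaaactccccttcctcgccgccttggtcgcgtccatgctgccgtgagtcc

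RefSeq windows of this kind were matched by symbol for 29 of the 37 members, all but Syt5, Snap25, Syt7, Syngr3, Syt4, Vamp2, Rims2 and Syn3. The GC box occurred in 23 of the 29 windows (79.3%) and in 32.7% of all 32851 windows of the same length. The median GC content was 61.2% over the 29 windows and 52.4% over all. Of the 5 sequences printed, that of Cplx2 had no match to any motif and the lowest GC content, 50.8%. The cyclic AMP response element and the RE1 part were each found in 1 of the 29, the Syn1 window, against 1.55% and 0.301% of all windows. The TATA box was found in 2 members, Rab3b and Sv2b (6.90%), against 12.4% of all windows. None of the motifs contains another. A match describes letters in these windows, and binding was not measured.

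Levels are given as RPM, a gene's read pairs scaled to the mapped read pairs, summed over the cells of a group (pooled RPM), and cells above 10 RPM were counted for each gene. Mapped read pairs ranged from 3707601 to 15840130 per cell. The share of mapped pairs that fell on genes was 45.1 to 60.8% in 6 of the groups and 34.1% in P5 type 3, so RPM values run low in that group. The labels also sort the cells into 4 library sets of unstated meaning, here A to D. P2 is set A throughout, so age P2 and set A cannot be told apart, and P5 types 2 and 3 have only 2 and 3 cells each in sets B and C. At least 2 of 8 IN markers (Gad1, Gad2, Dlx1, Dlx2, Dlx5, Dlx6, Slc32a1 and Htr3a) were above 10 RPM in 75 of 82 E18 cells, in 21 of 22, 29 of 31 and 10 of 13 P2 cells of types 1, 2 and 3, and in 34 of 34, 18 of 19 and 21 of 22 P5 cells. At least 2 markers of 1 other cell type were found in 23 cells, among them 14 E18 cells with markers of excitatory neurons and 5 P5 type 2 INs, 3 of these with markers of astrocytes.

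Counting error was small beside the spread between cells. The exact 95% Poisson interval of Snap25 at E18 was 304 to 306 RPM, while single cells ranged from 0 to 1508 RPM. Of the 37 members, 31 passed a filter that ignored the groups (above 10 RPM in at least 10% of all cells, as 6770 genes were). Syt2, Vamp1, Unc13c, Sv2b, Sv2c and Sncb did not pass. Differences are log2 folds of pooled RPM after adding 1 RPM. A difference is called kept where it was at least 2-fold, stayed so without the highest cell of the higher group, and had the same direction in the share of cells above 10 RPM. Shares of all genes past 2-fold were taken over all cells in RPM only. Counts of kept members and counts under alternatives therefore have no such share beside them. The list was drawn up with earlier results known, so its counts beside all genes are a description.

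**Figure D1:**
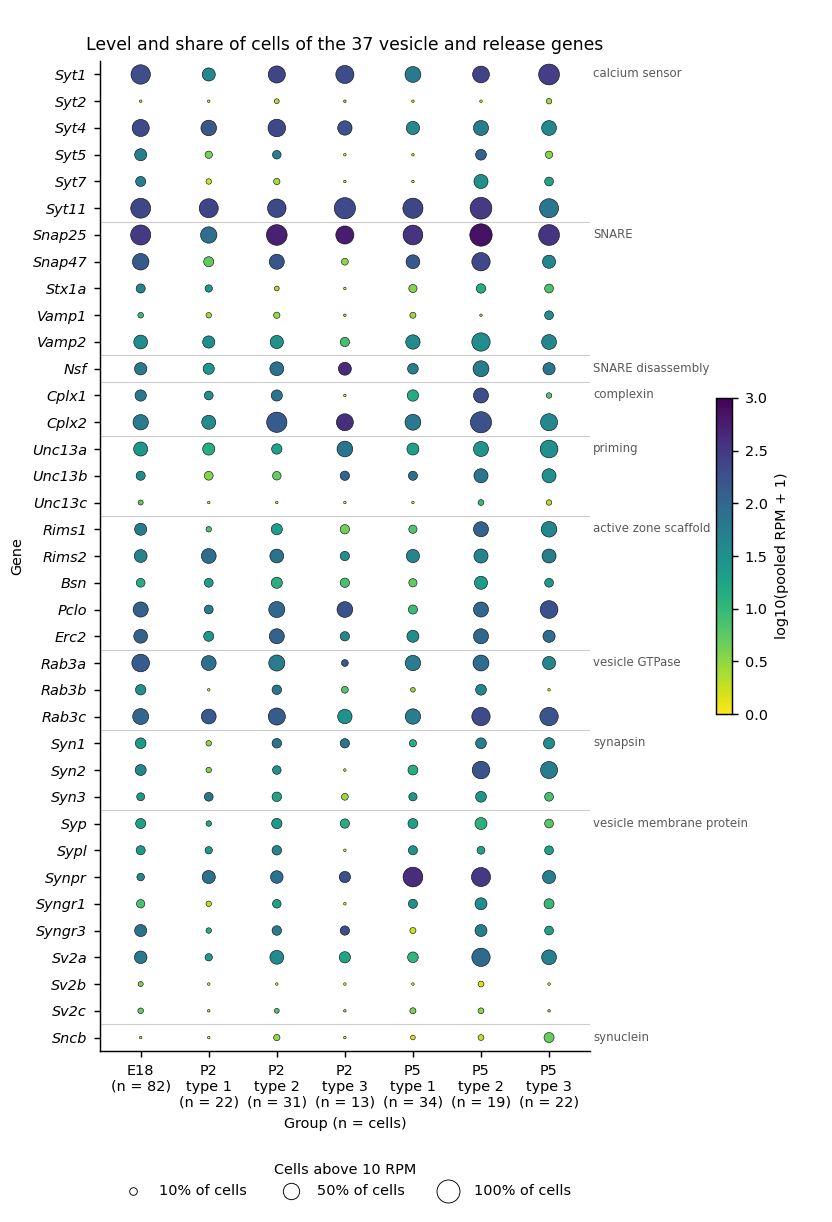
Pooled level (colour, log10 of pooled RPM + 1) and share of cells above 10 RPM (dot size) of the 37 genes in the 7 groups, ordered by role. Snap25 and Syt11 have large dots in most groups, and Sv2b has no cell above 10 RPM in 5 of the groups.

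Among the calcium sensors, Syt1, the fast sensor of synchronous release (chromosome 10, 108497650 to 109010982), stood at 191.9 RPM at E18, at 40.3, 239 and 202.7 RPM in P2 types 1, 2 and 3, and at 58.9, 255 and 287 RPM in P5 types 1, 2 and 3. Type 1 INs held the lowest level at both postnatal ages. Single cells overlapped between all groups. Their median was 76.9 RPM at E18 (highest cell 1067), 8.18 in P5 type 1 (375), 22.5 in P5 type 2 (1744) and 132.6 in P5 type 3 (1427). Syt1 was above 10 RPM in 18 of 22 P5 type 3 INs (81.8%, 95% interval 59.7 to 94.8%) and in 16 of 34 P5 type 1 INs (47.1%, 29.8 to 64.9%).

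Syt11, a synaptotagmin that does not bind calcium, was found in all groups. It had at least 1 read pair in every cell, and its pooled level lay between 208.6 and 296 RPM in 6 groups and at 66.8 RPM in P5 type 3. Without its highest cell, which held 61.2%, P2 type 3 stood at 71.6 RPM. Syt4, a synaptotagmin linked to dense core vesicles, stood at 211.7 RPM at E18, at 150.7, 223.4 and 172.99 RPM in the P2 types and at 37.99, 55.9 and 39.2 RPM in the P5 types. All 3 P5 groups were below all 4 earlier ones. Syt4 shares 566 exon bases with a gene on the opposite strand, and the strand used in counting is not stated. Its median cell was at 27.05 RPM at E18 and at 0.183, 8.04 and 1.44 RPM in P5 types 1, 2 and 3.

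Syt5, a vesicle synaptotagmin, and Syt7, the sensor of asynchronous release, were found in fewer cells. Syt5 stood at 51.2 RPM at E18 and at 118.3 RPM in P5 type 2, but at 0.0925 RPM in P5 type 1 and 2.50 RPM in P5 type 3. In P5 type 2 it was above 10 RPM in 4 of 19 cells, and 1 cell at 885 RPM held 56.03% of the summed level. No Syt5 read pair was counted in the 13 P2 type 3 INs. Syt7 was at 53.5 RPM at E18, at 0.651, 1.54 and 0.2999 RPM in the P2 types and at 0.283, 30.8 and 17.2 RPM in the P5 types. It was above 10 RPM in 7 of 19 P5 type 2 INs and in 0 of 34 P5 type 1 INs, which allows a share of up to 8.82%. Syt2, a fast sensor of many inhibitory synapses, reached 1.82 RPM at most in any group.

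Snap25 is the plasma membrane SNARE of regulated release (chromosome 2, 136713453 to 136782428). Its pooled RPM was the highest of the 37 genes in all groups but P2 type 1 (Syt11) and P5 type 1 (Synpr). This ranking is not scaled to transcript length. Per kilobase of merged exons, Rab3a (60.8 RPM), Syt4 (54.4 RPM) and Snap47 (53.8 RPM) stood above Snap25 (44.9 RPM) at E18. In P5 type 3, 1 cell held 44.8% of the Snap25 level. Without the highest cell of each gene Snap25 stood there at 204.3 RPM, below Syt1 at 213.5 RPM. Over all cells Snap25 stood at 305 RPM at E18, at 84.4, 530.4 and 567 RPM in P2 types 1, 2 and 3, and at 352, 726 and 339 RPM in P5 types 1, 2 and 3. At E18, 62 of 82 cells were above 10 RPM, with 11 of 22, 25 of 31 and 8 of 13 cells in the P2 types and 25 of 34, 18 of 19 and 18 of 22 cells in the P5 types. The median cell was at 171.4 RPM at E18, at 6.80 RPM in P2 type 1, at 121.7 RPM in P5 type 1 and at 338 RPM in P5 type 2. Type 1 was the lowest P2 type and type 2 the highest P5 type.

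Snap47, a SNARE of the same family, followed another order. It was at 142.5 RPM at E18, at 4.48, 157.2 and 2.09 RPM in P2 types 1, 2 and 3, and at 149.5, 216.02 and 40.9 RPM in the P5 types, with type 2 the highest at both postnatal ages. It shares 307 exon bases with Jmjd4 on the opposite strand. Vamp2, the vesicle SNARE, was among the steadier members, between 29.7 and 40.03 RPM in 6 groups and at 6.92 RPM in P2 type 3. Its paralog Vamp1 stayed between 0.864 and 8.37 RPM except in P5 type 3, where 1 cell at 753 RPM held 88.1% of the summed level behind a pooled 32.1 RPM.

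Stx1a, the syntaxin of the complex, was found in few cells, from 0 of 13 in P2 type 3 to 3 of 19 in P5 type 2, and stood at 46.8 RPM at E18, 23.9, 1.42 and 0.0120 RPM in the P2 types and 2.69, 12.9 and 5.99 RPM in the P5 types. In P2 type 1, 1 cell at 539 RPM held 96.3% of the summed level, and the level without it was 0.959 RPM. Nsf, the ATPase that takes spent SNARE complexes apart, was at 62.6 RPM at E18, 24.6, 75.8 and 434 RPM in the P2 types and 54.3, 57.1 and 66.3 RPM in the P5 types. In P2 type 3, 1 cell at 3503 RPM held 86.3% of the summed level, and the level without it was 51.9 RPM. In P5 type 3, 1 cell at 727 RPM held 62.6% of the summed Nsf level. Without that cell P5 type 3 stood at 23.9 RPM, below P5 types 1 and 2 with or without their highest cells. P2 type 1 stood at 10.8 RPM without its highest cell.

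The complexins divided the P5 types. Cplx1 (chromosome 5, 108518554 to 108550024) stood at 61.3 RPM at E18, at 31.7, 69.3 and 0.05998 RPM in the P2 types, and at 13.7, 192.4 and 5.49 RPM in P5 types 1, 2 and 3. In P5 type 2 it was above 10 RPM in 8 of 19 cells, with a median of 4.69 and a highest cell at 1103 RPM. In P5 type 3 it was above 10 RPM in 1 of 22 cells, and 17 of them had no read pair. Cplx2 was found in more cells than Cplx1 in every group. It stood at 55.6 RPM at E18, at 36.7, 137.03 and 386 RPM in the P2 types and at 58.99, 179.3 and 40.4 RPM in the P5 types, and was above 10 RPM in 16 of 19 P5 type 2 INs (84.2%, 95% interval 60.4 to 96.6%).

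Of the Munc13 priming factors, Unc13a, the main one of cortical synapses, was at 25.3 RPM at E18, 12.2, 17.8 and 69.7 RPM in the P2 types and 20.02, 26.6 and 32.3 RPM in the P5 types. Unc13b ranged from 2.61 RPM in P2 type 1 to 106.6 RPM in P2 type 3, where 1 cell at 1503 RPM held 97.97% of the summed level. It was at 36.2 RPM at E18, at 81.7 RPM in P5 type 1 (52.1 RPM without the highest cell) and at 64.7 RPM in P5 type 2. Unc13c, best known from the cerebellum, was above 10 RPM in 3 E18 cells, 1 P5 type 2 IN and 1 P5 type 3 IN.

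Of the active zone scaffolds, Pclo (Piccolo) was at 122.5 RPM at E18, at 56.7, 97.2 and 177.6 RPM in the P2 types and at 8.02, 101.4 and 180.8 RPM in the P5 types. P5 type 1 was the lowest group, with 5 of 34 cells above 10 RPM against 13 of 22 in P5 type 3. Without the highest cell Pclo stood at 91.03 RPM in P2 type 3 and at 103.9 RPM in P5 type 3. Rims1, a RIM scaffold, stood at 56.2 RPM at E18, at 6.60, 20.7 and 3.53 RPM in the P2 types and at 5.61, 116.9 and 41.4 RPM in the P5 types. Its paralog Rims2 lay between 32.3 and 85.7 RPM over the 7 groups, but P2 type 3, the lowest, stood at 5.37 RPM without its highest cell. Erc2, an ELKS protein, was at 115.02 RPM at E18, 24.7, 117.1 and 41.3 RPM in the P2 types and 33.2, 100.2 and 89.5 RPM in the P5 types. Without the highest cell, Erc2 stood at 52.4 RPM in P5 type 2 and at 11.1 RPM in P5 type 3. Bsn (Bassoon) was low, at 12.1 RPM at E18, 20.6, 11.9 and 6.38 RPM in the P2 types and 4.22, 21.5 and 23.9 RPM in the P5 types. Without the highest cell, Bsn stood at 3.30 RPM in P2 type 1.

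Among the Rab3 GTPases, Rab3a was at 135.3 RPM at E18, at 78.6, 56.9 and 149.4 RPM in the P2 types and at 53.4, 86.5 and 42.3 RPM in the P5 types. The value of P2 type 3 came almost whole (99.8%) from 1 cell at 1673 RPM. Rab3c stood at 103.9 RPM at E18, at 140.9, 136.1 and 29.3 RPM in the P2 types and at 53.8, 211.98 and 159.99 RPM in the P5 types. Rab3b was the rare one and was highest in type 2 INs and at E18, with 31.4 RPM at E18, 0.0181, 68.4 and 5.76 RPM in the P2 types and 1.98, 42.2 and 0.0691 RPM in the P5 types. Even in P5 type 2, 4 of 19 cells were above 10 RPM.

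The synapsins tether the reserve pool of vesicles. Syn2 (chromosome 6, 115134902 to 115282006) stood at 39.6 RPM at E18, at 2.66, 30.4 and 0.588 RPM in P2 types 1, 2 and 3, and at 12.5, 159.6 and 56.6 RPM in P5 types 1, 2 and 3. At E18, 18 of 82 cells (21.95%) exceeded 10 RPM, as did 6 of 34, 11 of 19 and 12 of 22 cells of the P5 types (17.6, 57.9 and 54.5%). Its median cell was at 0 at E18 and at 0.0374, 23.8 and 18.6 RPM in the P5 types. In P5 type 3, 1 cell held 50.5% of the summed level, and the pooled level without it was 26.7 RPM. In P5 type 2 it was 125.2 RPM without the highest cell. Syn1 was above 10 RPM in at most 22.7% of the cells of a group and stood at 22.6 RPM at E18, at 2.03, 72.03 and 71.9 RPM in the P2 types and at 12.3, 50.3 and 33.3 RPM in the P5 types. Without the highest cell P2 types 2 and 3 were at 47.9 and 6.77 RPM, and the P5 types were at 3.98, 18.42 and 18.7 RPM. Syn3 lay between 1.92 and 67.4 RPM, with 85.7% of the highest value, in P2 type 1, from 1 cell, and shares 1733 exon bases with Timp3 on the opposite strand.

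Synpr (synaptoporin, a relative of synaptophysin, on chromosome 14, 13284780 to 13616340) had the largest increase of the members from E18 to P5 in types 1 and 2. It was at 39.2 RPM at E18, where 8 of 82 cells (9.76%) were above 10 RPM, at 79.7, 74.2 and 178.5 RPM in the P2 types, and at 411, 319.5 and 51.8 RPM in P5 types 1, 2 and 3. It was above 10 RPM in 25 of 34 cells of P5 type 1 (73.5%, 95% interval 55.6 to 87.1%), 13 of 19 of type 2 (68.4%, 43.4 to 87.4%) and 7 of 22 of type 3 (31.8%, 13.9 to 54.9%). The median cell was at 0 at E18 with a highest cell at 703 RPM, at 65.4 RPM in P5 type 1 with a highest cell at 2885 RPM, and at 49.4 RPM in P5 type 2 with a highest cell at 1568 RPM.

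Syp (synaptophysin), a common marker of synapses, was low throughout, at 19.1 RPM at E18, 15.6, 21.9 and 13.2 RPM in the P2 types and 19.4, 11.0 and 5.12 RPM in the P5 types, and was above 10 RPM in at most 26.3% of the cells of a group. In P2 type 1 this share was 4.55%. Without the highest cell, Syp stood at 1.28 RPM in P2 type 3 and at 4.39 RPM in P5 type 1. Sypl, its widely expressed relative, lay between 17.5 and 43.7 RPM except in P2 type 3, where 1 read pair was counted in 13 cells. Single cells carried much of it, and without the highest cell P2 type 2 stood at 6.51 RPM and P5 type 2 at 3.97 RPM. Sv2a, an SV2 protein, was at 64.05 RPM at E18, at 21.7, 35.6 and 16.5 RPM in the P2 types and at 9.83, 95.7 and 50.3 RPM in the P5 types, and was above 10 RPM in 12 of 19 P5 type 2 INs. In P2 type 1, 2 cells were above 10 RPM, and the level without the highest cell was 1.40 RPM. Syngr3, a synaptogyrin of brain vesicles, was at 78.5 RPM at E18, 12.2, 57.5 and 194.7 RPM in the P2 types and 0.748, 54.7 and 18.2 RPM in the P5 types. It was above 10 RPM in 1 P2 type 1 IN and in 2 P2 type 3 INs. Without the highest cell, Syngr3 in P2 type 3 stood at 3.93 RPM. Syngr1 was at 6.32 RPM at E18, 1.13, 19.0 and 0.0480 RPM in the P2 types and 31.1, 33.4 and 8.96 RPM in the P5 types, with 1 cell holding 77.5% of the summed level in type 1. Sv2b, Sv2c and Sncb (beta-synuclein) stayed at or below 5.65 RPM in every group. Sncb was above 10 RPM in 4 of 22 P5 type 3 INs and in 4 cells of all other groups together.

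**Figure D2:**
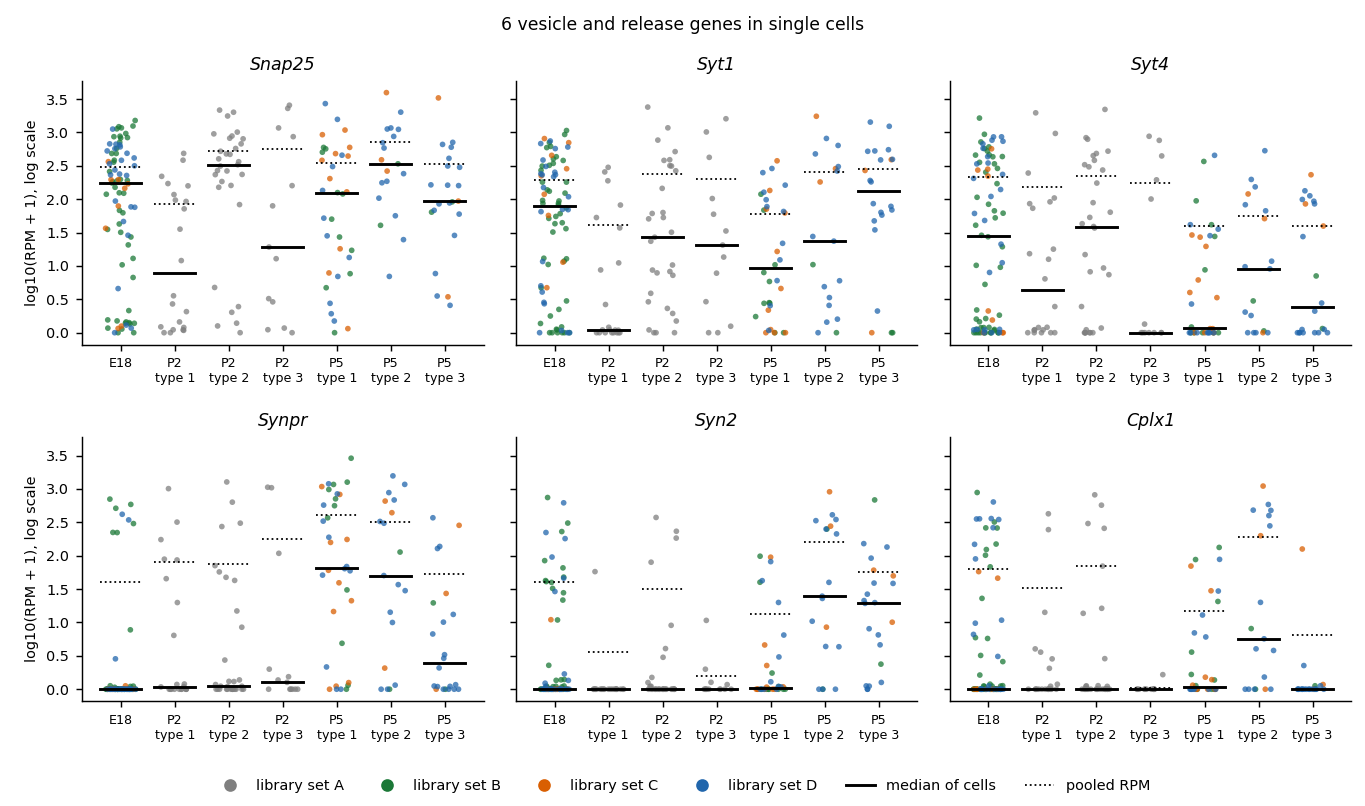
Level of 6 members in each cell (log10 of RPM + 1) by group, coloured by library set, with the median cell as a solid bar and the pooled level as a dotted bar. The median cell of Synpr lies at 0 at E18 and at 65.4 RPM in P5 type 1, and that of Syn2 at 0 at E18 and at 23.8 RPM in P5 type 2.

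Counted per cell, the machinery was found in part. At E18 the median cell had 10 of the 37 genes above 10 RPM (range 2 to 19). At P2 the median was 6.5 (2 to 12), 10 (4 to 18) and 7 (3 to 12) in types 1, 2 and 3, and at P5 it was 8 (4 to 12), 14 (3 to 22) and 11 (4 to 17). No cell lacked all of them, and the groups overlapped. The number of all genes above 10 RPM had a median of 2496 at E18, of 1834, 2482 and 1437 in the P2 types and of 2258, 2738 and 2102 in the P5 types. Per 1000 such genes, the median number of members was 4.04 at E18, 3.19, 4.40 and 4.52 at P2, and 3.41, 5.11 and 5.36 at P5, so type 1 was the lowest type at both ages. Thinning all cells to the lowest depth left the median number of members as it was in all 7 groups.

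The summed pooled level of the 37 genes was 2466 RPM at E18, 1329, 2724 and 3084 RPM in P2 types 1, 2 and 3, and 1867, 3772 and 1893 RPM in P5 types 1, 2 and 3. The 14 E18 cells with excitatory neuron markers had a median of 14 members above 10 RPM and the remaining E18 cells one of 9. The 6 excitatory markers summed to between 0 and 2323 RPM in E18 cells, with a median of 1.22, and none was at 0 over the group. The part of these markers in the E18 levels was not tested. The 5 P5 type 2 INs with markers of another cell type had a median of 10 and the remaining P5 type 2 INs one of 14.

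**Figure D3:**
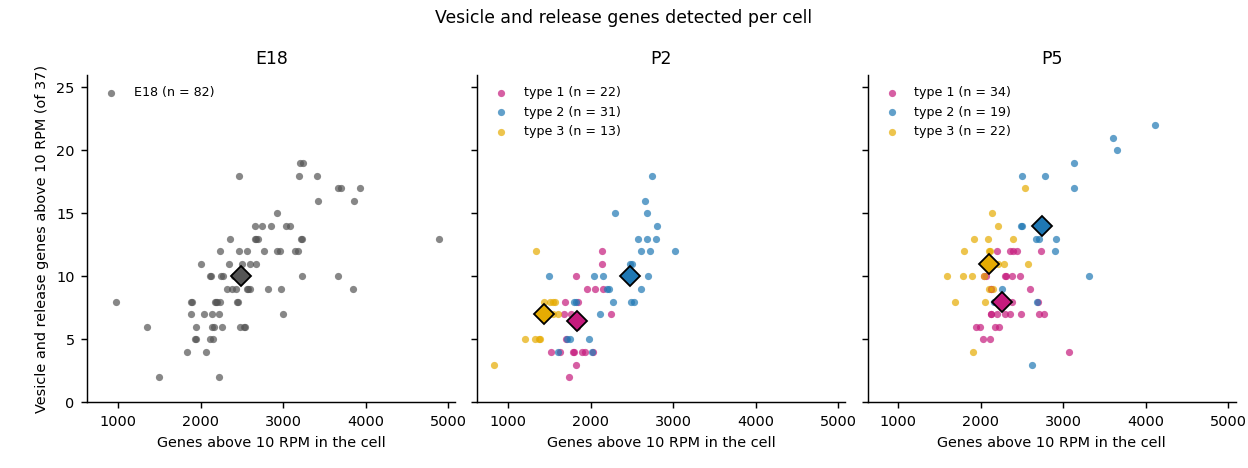
Number of the 37 genes above 10 RPM in each cell (y axis) against the number of all genes above 10 RPM in it (x axis), in a panel per age, with type in colour and the medians as diamonds. The P5 type 2 diamond, at 14 members and 2738 genes, is the highest, and the P5 type 3 diamond, at 11 members, lies above that of P5 type 1, at 8, with fewer genes found.

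A cell in which Syt1, Snap25, Stx1a and Vamp2 were all above 10 RPM was uncommon. This core of calcium-triggered fusion was whole in 4 of 82 E18 cells (4.88%, with a 95% interval from 1.34 to 12.0%), in 0 of 22, 1 of 31 and 0 of 13 in P2 types 1, 2 and 3, and in 1 of 34, 2 of 19 and 1 of 22 in the P5 types. The counts of 0 allow shares of up to 13.6 and 23.1%. Without Stx1a, the other 3 were together above 10 RPM in 18 of 82 E18 cells and in 6 of 34 (17.6%), 7 of 19 (36.8%) and 7 of 22 (31.8%) of the P5 types. When 1 read pair was enough, the whole core was found in 25.6% of E18 cells and in 11.8, 31.6 and 27.3% of the P5 types.

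At P5 each type was set against the other types of that age. In type 1 INs, 15 of the 31 members were at least 2-fold lower and 2 were higher, while over all 6770 genes 19.3% were lower and 23.3% higher. The median log2 fold was -0.91 over the members and 0.15 over all genes. The share of cells above 10 RPM was lower in type 1 for 27 of the 31 and higher for 4, while it was higher for 48.3% of all genes tested. Of the 15, 12 were kept, namely Syt1, Syt5, Syt7, Rims1, Bsn, Pclo, Rab3b, Rab3c, Syn1, Syn2, Syngr3 and Sv2a, and no higher one was. Pclo differed by a log2 fold of -3.96 (8.02 against 139.9 RPM), Rims1 by -3.62 (5.61 against 80.3 RPM), Syn2 by -3.04 (12.5 against 109.6 RPM) and Sv2a by -2.79 (9.83 against 73.7 RPM). Within library set D alone, with 12 type 1 INs, 16 members were lower and 3 higher, and these 4 genes differed by -3.59, -2.36, -2.56 and -2.51, but Syn1 stood at 0.24. In set C, 20 members were lower and 5 higher, but in set B, with 11 type 1 INs against 2 cells each of types 2 and 3, 11 were lower and 13 higher, where the median over all genes was 0.72, and Syt1 turned to 2.88 and Rab3c to 0.14. With library sizes from total counts on genes, 16 were lower and 0 higher. The median over all genes was -0.064 in set D, 0.088 in set C and -0.054 with total counts on genes.

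In P5 type 2 INs, 13 of the 31 members were at least 2-fold higher than in the other P5 types and 0 were lower, beside 22.2% higher and 17.9% lower over all genes tested. The median log2 fold was 0.93 over the members and 0.10 over all genes. The kept members were Syt5, Syt7, Cplx1, Cplx2, Rims1, Rab3b, Syn2, Syngr3 and Sv2a. Cplx1 differed by 4.02 (192.4 against 10.9 RPM), Rab3b by 4.20 (42.2 against 1.34 RPM), Syn2 by 2.51 (159.6 against 27.2 RPM), Sv2a by 1.99 (95.7 against 23.4 RPM) and Cplx2 by 1.75 (179.3 against 52.8 RPM). A larger share of cells was above 10 RPM in type 2 for 29 of the 31, and for 69.1% of all genes tested. Without the cells that carry markers of another type, 16 members were higher and 0 lower, but Rims1 stood at -0.053 in place of 2.67. The 6 astrocyte markers summed to between 0.163 and 13331 RPM in P5 type 2 INs, with a median of 1.34, and none was at 0 over the group. In library set D, with 14 of the 19 cells, 15 members were higher and 1 lower, with Cplx1 at 4.69, Syn2 at 2.54, Cplx2 at 2.45 and Sv2a at 1.90. In set C, with 3 type 2 INs, 20 were higher and 5 lower, but Cplx2 was at -1.13. In set B, with 2 type 2 INs, 6 members were higher and 17 lower, where the median over all genes was -1.17 as well, and Cplx1 was at -2.58, Cplx2 at -0.59 and Sv2a at -4.39. The direction of Cplx2 thus held in 1 of the 3 sets, which has 14 of the 19 cells. The median over all genes was 0.25 in set D, -0.42 in set C and -0.001 without the cells that carry markers of another type.

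P5 type 3 INs divided the members. In RPM, 11 of the 31 were at least 2-fold lower than in the other P5 types and 3 higher, beside 47% lower and 11.2% higher over all genes, and the medians were -0.17 over the members and -0.88 over all genes. With library sizes from total counts on genes, 8 members were lower and 10 higher, where the median over all genes was -0.17. The kept members were lower for Syt11, Snap47, Cplx1, Cplx2, Rab3b, Syn3 and Synpr and higher for Pclo, and none of them changed sign with total counts on genes, TMM factors or DESeq2 size factors. In sets B, C and D apart, 19, 19 and 12 members were lower and 8, 4 and 3 higher, and Cplx2 turned to 1.19 in set B and Pclo to -0.11 in set C. The medians over all genes in these sets were -2.70, -1.65 and -0.86. Synpr differed by -2.85 (51.8 against 379 RPM), Cplx1 by -3.57 (5.49 against 75.8 RPM), Syt11 by -1.94 (66.8 against 259.7 RPM) and Pclo by 2.13 (180.8 against 40.5 RPM). Syt1 stood at 1.17 (287 against 126.9 RPM), and at 0.75 without its highest cell.

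**Figure D4:**
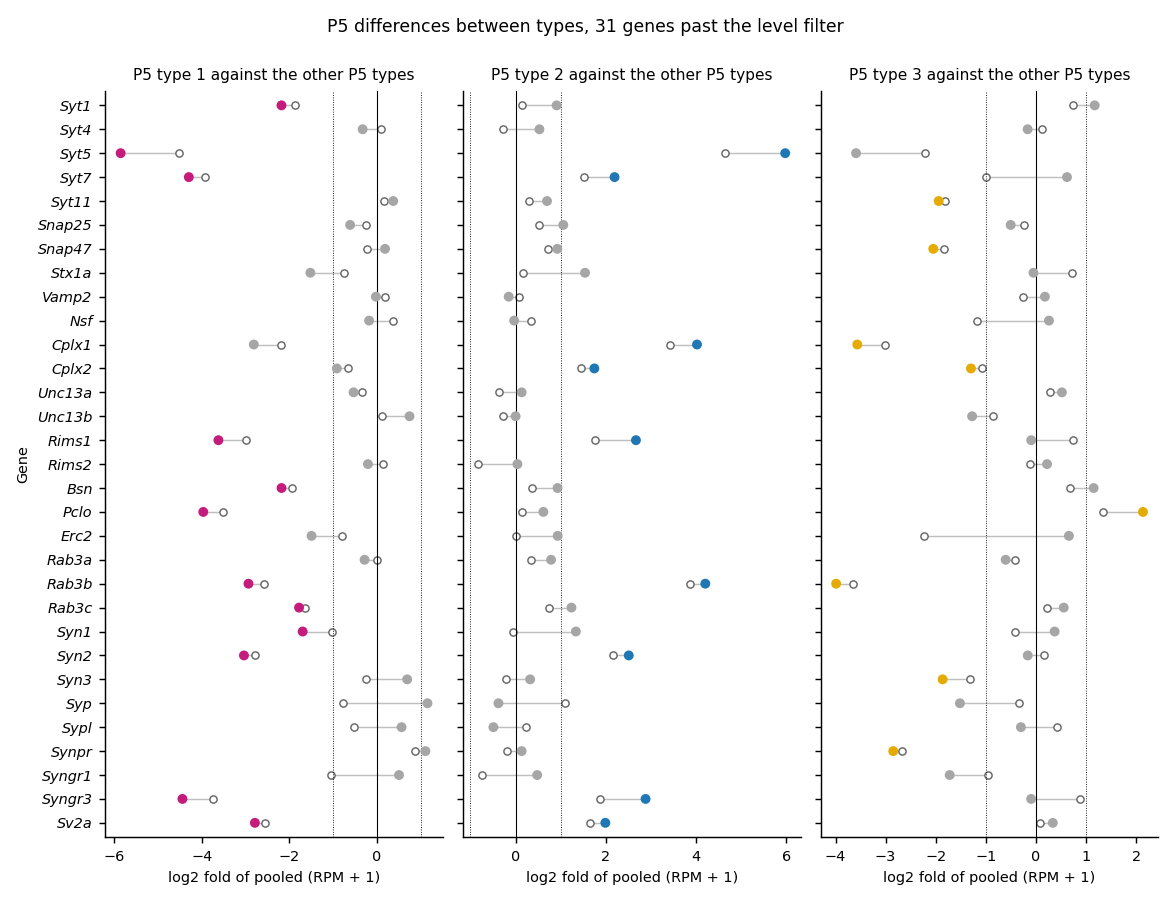
Log2 fold of each P5 type against the other P5 types for the 31 members that passed the filter. Filled points are all cells (coloured where kept), open points leave out the highest cell of the higher group, and dotted lines mark 2-fold. In type 1, 15 points lie beyond 2-fold on the lower side, and in type 2, 13 lie beyond it on the higher side.

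At P2, in cells of library set A alone, type 1 INs had lower and type 2 INs higher levels of many members. In P2 type 1, 16 of the 31 were at least 2-fold lower than in the other P2 types and 2 higher, beside 30.6% lower and 18.2% higher over all genes, with medians of -1 and -0.24. Kept were Syt1, Snap25, Snap47, Nsf, Cplx2, Rab3b, Syn1, Syn2, Syngr1 and Syngr3, all lower. Snap25 differed by -2.66 (84.4 against 538 RPM) and Syt1 by -2.49 (40.3 against 231 RPM). In P2 type 2, 12 members were higher and 3 lower, beside 27.2% higher and 18.1% lower, with medians of 0.51 and 0.21. Kept were Syt5, Snap25, Snap47, Rab3b, Syn1, Syn2 and Syngr1, all higher. Snap47 differed by 5.03 (157.2 against 3.83 RPM) and Snap25 by 1.29 (530.4 against 216.5 RPM). With TMM factors 10 members were higher and 5 lower, and with DESeq2 size factors 10 and 6. The medians over all genes were then -0.13 and -0.25.

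P2 type 3 was the smallest group, and single cells held much of several of its levels. Of the 31 members, 8 were at least 2-fold higher and 14 lower, beside 15.7% higher and 52.8% lower over all genes, with medians of -0.81 and -1.21. Among the higher ones, Unc13a alone was kept, at 2.10 (69.7 against 15.5 RPM). Without the highest cell of each group, 2 were higher and 21 lower, where the median over all genes was -2.48. The kept lower ones were Syt5, Snap47, Stx1a, Vamp2, Cplx1, Rims2, Rab3b, Rab3c, Syn2, Syn3, Sypl and Syngr1. Vamp2 differed by -2.02 (6.92 against 31.1 RPM) and Rab3c by -2.20 (29.3 against 138.1 RPM). With DESeq2 size factors 11 members were higher and 12 lower, where the median over all genes was -0.44.

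From E18 to P5 each type was set against the same 82 E18 cells. In type 1, 15 of the 31 members were at least 2-fold lower at P5 and 3 higher, beside 23.2% lower and 11% higher over all genes, with medians of -0.94 and -0.19. The kept members that were lower are Syt1, Syt4, Syt5, Syt7, Stx1a, Rims1, Pclo, Erc2, Rab3a, Rab3b, Syn2, Syngr3 and Sv2a, and the only higher one was Synpr. Syt1 differed by -1.69 (191.9 to 58.9 RPM), Syt4 by -2.45 (211.7 to 37.99 RPM), Pclo by -3.78 (122.5 to 8.02 RPM), Rab3a by -1.32 (135.3 to 53.4 RPM) and Synpr by 3.36 (39.2 to 411 RPM). In library sets B, C and D apart, Synpr differed by 3.82, 7.93 and 3.16 and Syt1 by -2.89, -2.22 and -1.27. In set C, with 9 E18 cells, 3 of the lower ones turned, Erc2 to 3.01, Syn2 to 2.40 and Sv2a to 1.77. Without the cells that carry markers of another type, the counts stayed at 15 lower and 3 higher, and the median over all genes was -0.16.

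In type 2, 10 members were at least 2-fold higher at P5 than at E18 and 2 lower, beside 13.6% higher and 23.3% lower over all genes, with medians of 0.41 and -0.16. Kept were Cplx1, Cplx2, Syn2, Synpr and Syngr1 as higher and Syt4 as lower. Synpr differed by 2.99 (39.2 to 319.5 RPM), Syn2 by 1.98 (39.6 to 159.6 RPM), Cplx2 by 1.67 (55.6 to 179.3 RPM) and Syt4 by -1.90 (211.7 to 55.9 RPM). Within library set D, 6 members were higher and 5 lower, and these 4 genes differed by 3.52, 1.25, 3.34 and -1.95. Cplx1 was at 0.75 there, against 1.63 over all sets. In set C, with 3 P5 cells, 16 members were higher and 9 lower, and Cplx2 was at -0.71. In set B, with 2 P5 cells, 7 were higher and 20 lower, where the median over all genes was -1.86, and Synpr was at -0.40, Cplx2 at -2.18 and Cplx1 at -4.01. Without the highest cell of each group, 6 members were higher and 4 lower, where the median over all genes was -0.57. It was -0.20 in set D and -0.66 in set C.

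In type 3, 12 members were at least 2-fold lower at P5 than at E18 and 0 higher in RPM, beside 49.6% lower and 9.68% higher over all genes, and the medians were -0.34 and -0.97. With total counts on genes, 8 were lower and 9 higher, with TMM factors 12 and 6, and with DESeq2 size factors 11 and 8. The 10 kept members, Syt4, Syt5, Syt11, Snap47, Stx1a, Cplx1, Rab3a, Rab3b, Syp and Syngr3, kept their direction with each of these. The medians over all genes were -0.23 with total counts, -0.43 with TMM and -0.35 with DESeq2. In sets B, C and D apart, 21, 14 and 12 members were lower and 5, 7 and 2 higher, and in set C, with 3 P5 cells, Cplx1 turned to 1.84 and Syp to 1.22. The medians over all genes in these sets were -3.52, -1.88 and -1.03. Cplx1 differed by -3.26 (61.3 to 5.49 RPM), Syt4 by -2.40 (211.7 to 39.2 RPM), Syt11 by -1.77 (230.3 to 66.8 RPM) and Rab3a by -1.65 (135.3 to 42.3 RPM). Syt4 was kept as lower in all 3 types, whose folds share their E18 cells.

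P2 and P5 cells lie in different library sets, which cannot be told apart from age, and their values are given side by side only. Syn2 stood at 2.66 and 12.5 RPM at P2 and P5 in type 1, at 30.4 and 159.6 RPM in type 2 and at 0.588 and 56.6 RPM in type 3, higher at P5 in each. Syt4 was lower at P5 in each, at 150.7 and 37.99 RPM, 223.4 and 55.9 RPM, and 172.99 and 39.2 RPM. Synpr was higher at P5 in type 1 (79.7 and 411 RPM) and type 2 (74.2 and 319.5 RPM) and lower in type 3 (178.5 and 51.8 RPM). In type 3 the share of cells above 10 RPM went the other way (23.1 and 31.8%), and P2 stood at 89.4 RPM without its highest cell.

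Paralogs were compared per kilobase of merged exons (RPM per kb), so that long and short transcripts can be set side by side. At P5, Syt11 made up 73.1% of the summed synaptotagmin level in type 1 INs and Syt1 11.2%. In type 3 INs Syt1 made up 56.5% and Syt11 21.1%. In type 2 INs Syt11 held 36.6%, Syt5 31.9% and Syt1 19.6%, and without the highest cell of each gene Syt5 held 21.4%. At E18 no gene of the family held more than 36.2%, the share of Syt4. More than 1 synaptotagmin was above 10 RPM in 62 of 82 E18 cells and in 17 of 34, 17 of 19 and 16 of 22 of the P5 types.

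Rims1 held 64.2% of the RIM level at E18, 15.8% in P5 type 1, 77.98% in P5 type 2 and 53.3% in P5 type 3, the rest being Rims2. In P5 type 2, 1 cell held 47.3% of the summed Rims1 level, and its difference from the other P5 types was lost without the cells that carry markers of another type, as given above. Few cells had both RIM genes above 10 RPM, 5 of 82 at E18 and 1 of 34, 2 of 19 and 4 of 22 in the P5 types. In the complexin family, Cplx1 held 71.3% at E18, where 7 of 82 cells had both genes, and 70.7% in P5 type 2, where all 8 cells with Cplx1 above 10 RPM also had Cplx2. Cplx2 held 76.6% in P5 type 3 and 99.5% without the highest cell of each gene.

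Vamp2 held at least 76.9% of the Vamp1 and Vamp2 level in every group, and Sv2a at least 87.1% of the SV2 level. Rab3a held 45.4 to 94.3% of the Rab3 level, although in P2 type 3 its share was 5.76% without the highest cells. Syngr3 held at least 79.2% of the synaptogyrin level in 6 groups, while in P5 type 1 Syngr1 held 94.7%. In P2 types 1 and 3, Syngr3 was above 10 RPM in 1 and 2 cells. Its share in P2 type 1 was 75.4% without the highest cells. The synapsin family changed hands, with Syn2 at 56.7% in P5 type 2 (71.9% without the highest cells), Syn1 at 79.3% in P2 type 2 and Syn3 at 84.7% in P2 type 1, where 3 of 22 cells had Syn3 above 10 RPM. Snap25 held 45.5% of the Snap25 and Snap47 level at E18, 47.9% in P5 type 1 and 76.4% in P5 type 3.

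**Figure D5:**
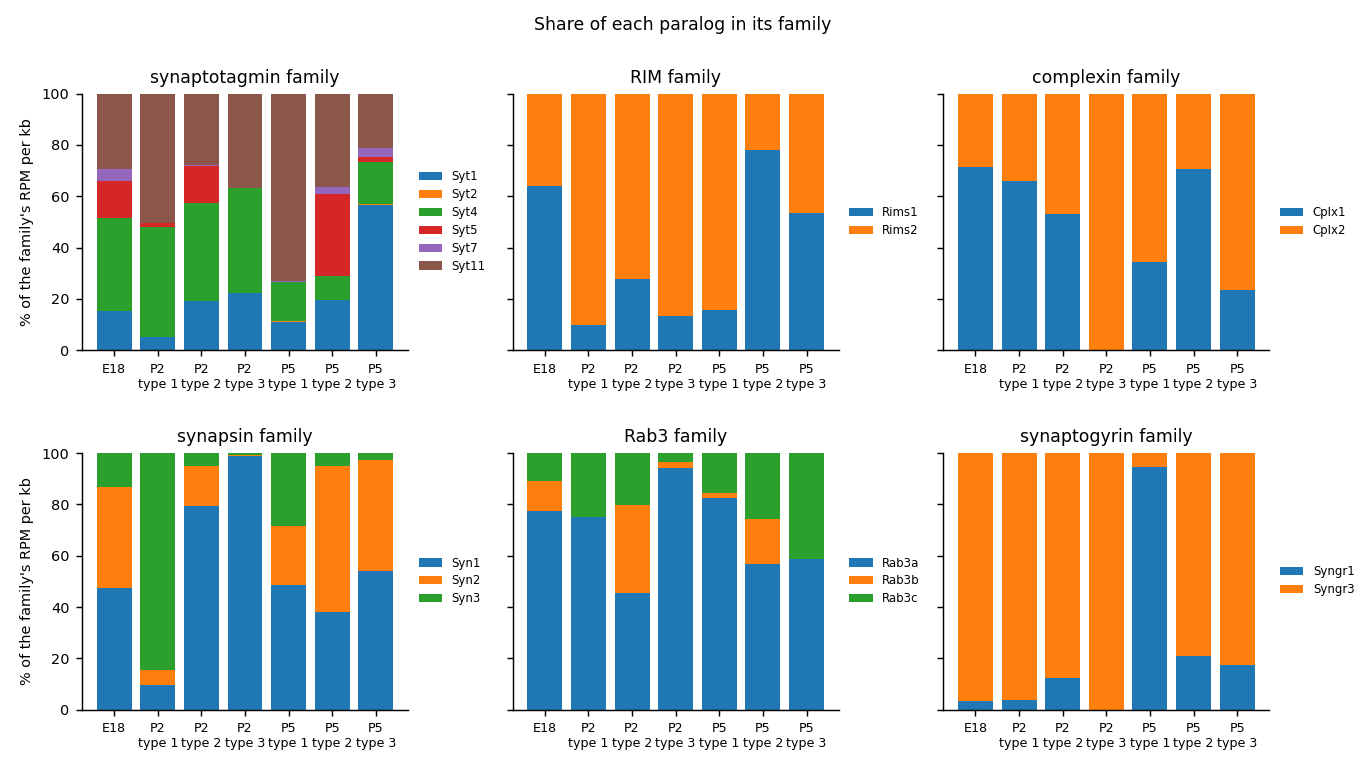
Share of each paralog in the summed level of its family (% of RPM per kb) in the 7 groups, for 6 families. Syt11 makes up 73.1% of the synaptotagmin bar in P5 type 1 and Syt1 56.5% in P5 type 3, and Syngr1 leads the synaptogyrin bar in P5 type 1 only.

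A further list of 59 genes of release and recycling that are not members (syntaxin partners, CAPS, liprins, endocytic proteins and others) was read in the same way, and 35 of them passed the filter. At P5, 11 of the 35 were at least 2-fold lower and 7 higher in type 1, 8 lower and 7 higher in type 2, and 9 lower and 8 higher in type 3, which is 31.4 and 20%, 22.9 and 20%, and 25.7 and 22.9% of the list, beside 19.3 and 23.3%, 17.9 and 22.2%, and 47 and 11.2% of all genes. From E18 to P5 the list gave 8 lower and 7 higher in type 1, and 6 lower and 8 higher in both type 2 and type 3, beside 23.2 and 11%, 23.3 and 13.6%, and 49.6 and 9.68% of all genes. At P2 it gave 16 lower and 6 higher in type 1, 6 lower and 13 higher in type 2, and 20 lower and 7 higher in type 3, beside 30.6 and 18.2%, 18.1 and 27.2%, and 52.8 and 15.7% of all genes. Amph (amphiphysin, which works in vesicle recycling) was at 260.2 RPM in P5 type 2 against 46.1 RPM in the other P5 types. Rph3a (rabphilin, a Rab3 effector) was at 32.8 RPM in P5 type 1 against 190.98 RPM in the others.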

How the data were processed

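Read pairs were aligned to GRCm38 with TopHat2 and counted per gene with HTSeq 0.6.1 (per the labels), and the authors deposited these counts without normalization, with a coefficient that turns a count into RPM. Strand use is not stated and no molecular identifiers were used. Poisson intervals therefore cover the counting of reads only, and binomial intervals the sampling of cells within 1 pool, not the spread between animals. Genes that share exon bases with an opposite-strand gene (12 of 37 members, 4 of them over at least 10 percent of their exon bases) were counted as deposited. Here RPM was the count times the coefficient, pooled over cells with exact 95% Poisson intervals. For shares of cells, exact 95% binomial intervals are given, and 0 cells is given with the limit of 3 cells. Folds used a pseudocount of 1 RPM. Each group is 1 sample, so no test was made. Total counts on genes per cell ranged from 1596087 to 11692823.

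All 37 members may be named. Kept members, the 10 found in most cells and the families are given by their pooled level per group or its range, and single cells for the few that the comparisons turn on. Members and lists were chosen with earlier results of these data known. Cell type markers covered interneurons, excitatory neurons, astrocytes, oligodendrocyte lineage, microglia, endothelial and cycling cells. The last 3 lists had at least 2 markers above 10 RPM in 1 cell, an E18 cell with cycling markers. Alternatives changed pseudocount, library size (total counts, edgeR TMM or DESeq2 size factors of pooled counts), scale, filter, depth, threshold, library set and single cells. Steps were tested on simulated data. Names and exon lengths came from GENCODE, upstream sequence from RefSeq. Pooled counts were scaled with edgeR 4.0.16 and DESeq2 1.42.0 under R 4.3.3. All else ran in Python 3.11.15 (scipy 1.17.1, pandas 2.3.3, numpy 2.4.6), with plots by matplotlib 3.10.9.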

Additional observations from a re-analysis of the deposited data

Results flagged for a closer look

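Cplx1 and Syn2 differed in direction between the types from E18 to P5. The difference was not tested, since each group is 1 sample, and both folds of a gene share the same E18 cells. Cplx1 had a log2 fold of 1.63 in type 2 and of -3.26 in type 3, a difference of 4.90. It was found in 8 of 19 P5 type 2 INs and in 1 of 22 P5 type 3 INs. Within library set D the folds were 0.75 and -6.46, in set C, with 3 P5 cells of each type, 5.22 and 1.84, and in set B, with 2 of each, -4.01 and -5.67. Syn2 had a log2 fold of 1.98 in type 2 and of -1.59 in type 1, a difference of 3.57. It was found in 11 of 19 P5 type 2 INs and in 6 of 34 P5 type 1 INs. Within library set D the folds were 1.25 and -2.03, in set C 7.37 and 2.40, and in set B 1.96 and -1.24. So the folds of Cplx1 had opposite directions in set D alone, and those of Syn2 in sets B and D. The part of the library sets in these differences was not tested.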

How the results depend on the processing

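The count of members at least 2-fold different moved by over 1.5 times in 22 of the alternative counts. With a filter at 25% of cells, which leaves 16 members, it was 7 (18 before), 5 (12) and 4 (12) from E18 to P5 in types 1, 2 and 3, 8 (18), 4 (15) and 10 (22) in the P2 types and 6 (17), 4 (13) and 6 (14) in the P5 types. With the mean of log2(RPM + 1) over cells it was 10 from E18 to P5 in type 1, 10 in P2 type 1, 8 in P2 type 3 and 8 in P5 type 3. With DESeq2 size factors it was 19 from E18 to P5 in type 3. In library sets B and C, with 2 and 3 cells each of P5 types 2 and 3, it was 27 and 25 from E18 to P5 in type 2, 26 and 21 in type 3, 23 and 25 in P5 type 2 and 27 and 23 in P5 type 3. Library sizes other than mapped pairs moved the median fold of all genes most in type 3, by 0.75, 0.55 and 0.62 from E18 to P5 with total counts, TMM and DESeq2 and by 0.77 in P2 type 3 with DESeq2. Without the highest cell of each group it moved by -1.27 in P2 type 3, and in library set B by -2.54 from E18 to P5 in type 3.

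Of 1156 alternative folds for the 89 kept folds, 23 reversed, 21 of them within a library set. In set C these were Erc2 3.01, Syn2 2.40 and Sv2a 1.77 from E18 to P5 in type 1, Cplx2 -0.71 in type 2, Cplx1 1.84 and Syp 1.22 in type 3, Cplx2 -1.13 in P5 type 2 and Pclo -0.11 in P5 type 3. In set B these were Cplx1 -4.01, Cplx2 -2.18, Synpr -0.40 and Syngr1 -2.08 from E18 to P5 in type 2, Syt1 2.88 and Rab3c 0.14 in P5 type 1, Syt7 -2.05, Cplx1 -2.58, Cplx2 -0.59, Syngr3 -0.81 and Sv2a -4.39 in P5 type 2, and Cplx2 1.19 in P5 type 3. In set D it was Syn1 0.24 in P5 type 1. Outside the sets, Rab3b was at 0.029 in P2 type 3 with the mean of log2(RPM + 1), and Rims1 at -0.053 in P5 type 2 without cells carrying markers of another type, an alternative chosen after seeing the data. The causes were not tested. No paired analysis was possible because the replicate numbers only count cells within 1 pool and no test was made. The folds within library sets are the only matched comparison. At a median depth of 9463033 mapped pairs, 10 RPM is well above 1 read pair, and the number of cells per group limits the shares.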
